A study of Mus musculus with 9 samples.

Results

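The BCL2 family genes described here are 10 genes that govern whether a cell survives or dies through its mitochondria: the survival genes Bcl2, Bcl2l1, Mcl1, Bcl2a1b and Bcl2a1d, the pore-forming effector Bax, and the BH3-only death genes Bcl2l11, Bid, Bbc3 and Pmaip1. They were taken by symbol from a table of normalized read counts with 45535 named rows. All 10 symbols were found, and all 10 were among the 18202 genes that were tested because their normalized counts averaged 10 or more. The RNA came from CD103+ dendritic cells of the lungs of C57/BL6j mice given bleomycin, a drug used to injure and scar the lung, for 7 days. Cells were released from lung with collagenase and pulled out on magnetic beads. There were 5 samples taken straight after isolation, called before culture, and 4 samples taken after 18 h in RPMI medium with serum and antibiotics, called after culture. Every sample, before and after, comes from bleomycin-treated animals, and no untreated lung is analysed here. The labels give no age, no sex and no statement of whether animals were pooled, so the tests below measure the spread between these samples, which may be technical. The extraction note speaks of total lung RNA, while the cell type label names the purified dendritic cells.

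Proteins of the BCL2 family meet at the outer membrane of the mitochondrion. Survival members hold the effectors BAX and BAK in check, and BH3-only members, which answer to growth factor loss, stress and DNA damage, bind the survival members or the effectors and free the pore. Open pores release cytochrome c, which assembles with APAF1 into the apoptosome and starts the caspase cascade. Dendritic cells are short-lived cells, and the balance of BCL2, MCL1 and A1 against BIM is known as one setting of their lifespan.

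The mouse carries several copies of the A1 gene, and Bcl2a1b and Bcl2a1d are so alike that reads cannot always be told apart between them. In GENCODE M21 (GRCm38) Bcl2a1b lies on chr9:89199209-89207827 on the plus strand and Bcl2a1d on chr9:88723285-88731914 on the minus strand. Another copy, Bcl2a1a, lies on chr9:88956900-88962419 on the plus strand and is not among the 10 genes. The coding sequences of Bcl2a1b and Bcl2a1d have 516 bases each and differ at 6 of them (98.8% identity). Bcl2a1a differs from Bcl2a1b at 11 positions and from Bcl2a1d at 7. Of the 50-base windows in the longest transcript, 79.2% for Bcl2a1b, 79.5% for Bcl2a1d and 69.0% for Bcl2a1a also occur in transcripts of another gene. In addition, 49.1% of the exon bases of Bcl2a1b are covered by Gm29094 on the same strand. How the authors' counting treated reads with several matches is not given in the sources used here. The split between copies is therefore uncertain, and their sum is given beside it. The sum is uncertain too, since such reads may have been dropped or counted more than once. Coding bases 1 to 150 of the 3 copies are shown on their coding strand because they hold 7 of the 12 positions at which any copies differ, and the capitals mark those positions.
Bcl2a1b: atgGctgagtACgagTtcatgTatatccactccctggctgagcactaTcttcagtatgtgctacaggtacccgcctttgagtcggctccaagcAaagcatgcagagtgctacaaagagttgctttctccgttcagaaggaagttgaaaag
Bcl2a1d: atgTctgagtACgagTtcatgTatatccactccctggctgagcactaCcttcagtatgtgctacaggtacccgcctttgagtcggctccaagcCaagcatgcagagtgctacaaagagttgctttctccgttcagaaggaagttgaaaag
Bcl2a1a: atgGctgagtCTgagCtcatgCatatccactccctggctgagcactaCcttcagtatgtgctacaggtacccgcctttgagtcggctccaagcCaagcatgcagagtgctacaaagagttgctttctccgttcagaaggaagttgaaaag

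Depth in named rows was 14.7 to 28.8 M reads before culture and 26.0 to 35.3 M after. Fold changes of all genes followed the GC content of their transcripts: the median log2 fold change, after minus before, was 0.56 in the 10% of genes with the lowest GC and -0.51 in the 10% with the highest. Before-culture replicate 4 stood apart in this. For each sample, log2 values were taken relative to each gene's mean over all samples. The median of the highest-GC set minus that of the lowest-GC set was 0.0309 in this replicate. It was 0.520 to 0.641 in the other samples before culture and -0.745 to -0.464 after. Replicate 4 thus lay between the groups, and a value near 0 does not mean a library free of GC bias. Many fold changes are given a second time below, as the value with the trend removed. For it, a smooth trend over GC content and exon length was taken out of each sample. Genes printed without a second value can be touched by the trend too. Atf4, for example, went from -1.17 to -0.84 and Relb from 1.73 to 2.16. The labelled cell type was checked against 10 markers of type 1 conventional dendritic cells (cDC1). None was at 0 in a group, and their summed normalized count was 141263 to 170319 before culture and 30056 to 33298 after, with 2 higher (Batf3 and Flt3) and 8 lower. Itgae, which encodes CD103 itself, ran from 15948 to 20174 before and from 1281 to 2034 after.

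Markers of other cells were present as well. Summed neutrophil markers fell from a range of 14298 to 25015 to one of 932 to 1902, with 7 of 7 tested markers lower and Ly6g at 0 in every sample after culture. Endothelial markers (7 of 7 lower) went from 23513 to 34428 before to 3274 to 4294 after, fibroblast markers (7 of 7 lower) from 15795 to 28708 before to 2238 to 4469 after, and epithelial markers (6 of 7 lower, 1 higher) from 18022 to 35553 before to 4176 to 8257 after. NK cell markers (5 of 6 lower) summed to 1324 to 2753 before and 288 to 488 after. Macrophage and monocyte markers (6 of 10 lower, 1 higher) summed to 36384 to 57149 before and 21890 to 37843 after. T cell markers (2 of 8 lower, 1 higher) summed to 6566 to 7792 before and 5999 to 7790 after, and B cell markers (2 of 7 lower, 1 higher) to 8299 to 12235 before and 6272 to 8777 after. These shifts moved with the same 2 groups as every result below, and their part in the BCL2 family values was not tested. In bulk samples such as these, fewer cells of a type and less RNA per cell cannot be told apart.

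After 18 h in culture the survival genes split. Bcl2, Bcl2l1 and Mcl1 were lower and the A1 copies were higher, while among the death genes Bax, Bcl2l11 and Bid were higher and Bbc3 and Pmaip1 lower. All 10 genes passed the test (limma on log2 of the normalized count plus 1, adjusted p of 0.05 over all tested genes), 5 in each direction. Over all tested genes 68.8% passed, 34.2% as higher and 34.6% as lower. Both edgeR and DESeq2 on recovered reads also called all 10, beside 69.0% and 69.6% of all tested genes. In 8 of the 10 the values of the 2 groups did not overlap, against 57.3% of all tested genes. Only Bcl2 passed with a change of at least 2-fold, a class that held 32.7% of all tested genes. The median size of the log2 fold change was 0.51 over the 10 genes and 0.64 over all tested genes. With the GC and length trend removed, 4 of the 10 were called higher and 4 lower (67.1% of all tested genes were called in that fit).

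**Figure D1:**
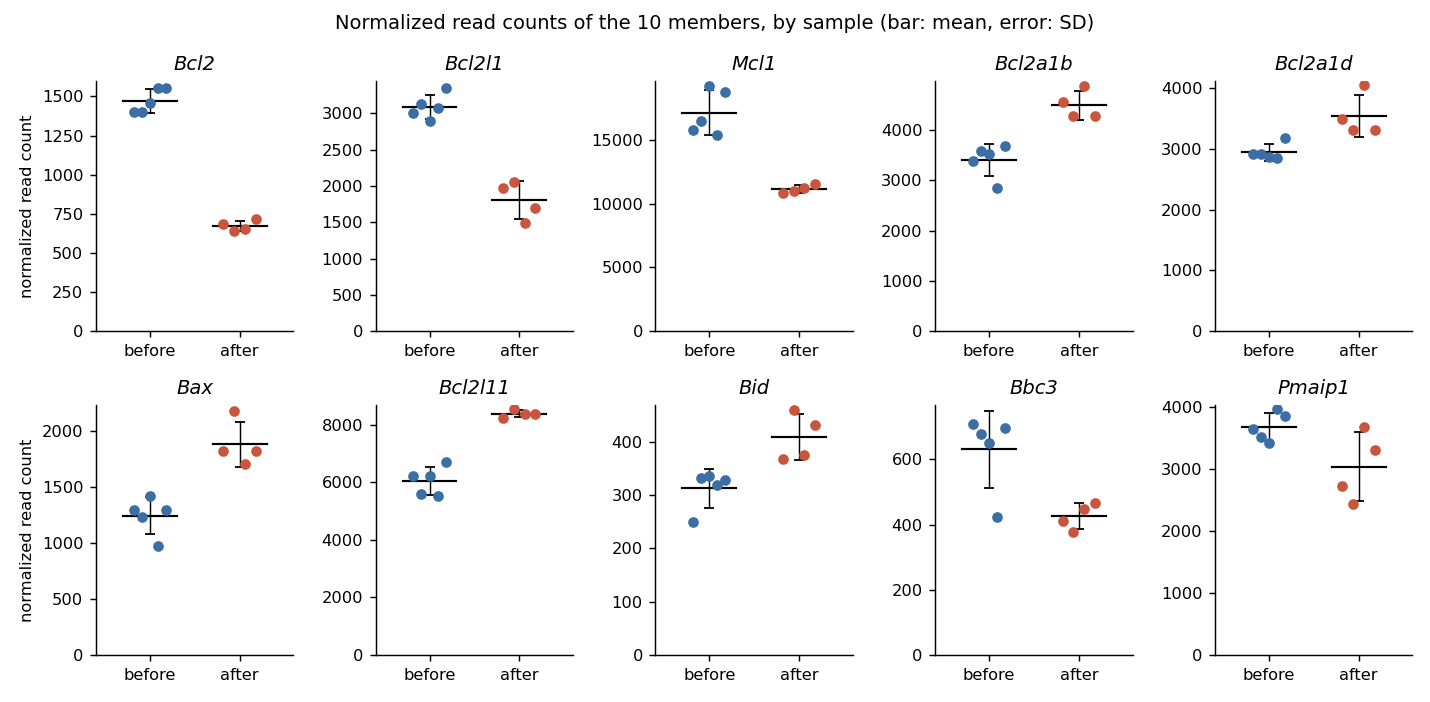
Normalized read counts of the 10 genes (vertical axis, linear and starting at 0) in the 5 samples before and the 4 samples after culture; points are samples, the horizontal line is the group mean and the error bar the SD. Bcl2 sits between 1398 and 1553 before and between 642 and 715 after, and only in Bbc3 and Pmaip1 do the groups share part of their range.

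Bcl2, the founding survival gene, had the strongest fall. It is encoded on chr1:106538178-106714274, minus strand. Its normalized counts before culture were 1399, 1398, 1455, 1553 and 1552 for replicates 1 to 5, and after culture 683, 642, 653 and 715 for replicates 1 to 4. Every cultured sample was far below every uncultured one. The mean fell from 1471 ± 77.4 (SD, n = 5) to 673 ± 32.8 (SD, n = 4), a 2.18-fold lower level, with a log2 fold change of -1.13 (SE 0.0722, adjusted p = 1.29e-08 by limma). With the GC and length trend removed the log2 fold change was -1.22. A gene on the opposite strand, D630008O14Rik, covers 6.09% of its exon bases, and strandedness of the counting is not given in the sources used here.

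Bcl2l1, which encodes BCL-XL, lies on chr2:152780668-152831728, minus strand. Its normalized counts were 2997, 3121, 2896, 3073 and 3349 before and 1966, 2056, 1483 and 1692 after culture. The groups were well separated, with the widest spread among the cultured samples. The mean fell 1.72-fold, from 3087 ± 169 to 1799 ± 262 (SD, n = 5 and 4), and the log2 fold change was -0.79 (SE 0.0942, adjusted p = 6.05e-06 by limma). Its transcript has 55.9% GC, and with the trend removed the fall was smaller, -0.38 on the log2 scale (limma adjusted p = 0.00139).

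Mcl1, the short-lived survival protein that many blood cells need, is on chr3:95658788-95663176, plus strand, and had the highest count of the 10 genes in every sample. It was measured at 15752, 16511, 19196, 15385 and 18775 before culture and at 10804, 11004, 11243 and 11540 after. The cultured samples lay close together and below all uncultured ones. Their mean was 11148 ± 317 (SD, n = 4) against 17124 ± 1754 (SD, n = 5), 1.54-fold lower, with a log2 fold change of -0.61 (SE 0.0837, adjusted p = 2.09e-05 by limma). The value with the trend removed was -0.65.

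The A1 copies moved the other way. Bcl2a1b, an NF-kB-induced survival gene of immune cells, was measured at 3374, 3578, 3525, 2848 and 3669 before and 4553, 4267, 4868 and 4265 after culture. Bcl2a1d read 2912, 2917, 2866, 2842 and 3181 before and 3489, 3317, 4054 and 3303 after. In both copies all cultured samples were above all uncultured ones, and after-culture replicate 3 was the highest. The log2 fold change was 0.40 for Bcl2a1b (SE 0.0837, adjusted p = 0.000745 by limma) and 0.26 for Bcl2a1d (SE 0.0761, adjusted p = 0.00751 by limma). Summed with Bcl2a1a, since the sequences shown above leave the split between copies uncertain, A1 rose from 7448 ± 494 to 9547 ± 777 normalized counts (SD, n = 5 and 4), a ratio of 1.28.

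These increases did not outlast removal of the GC and length trend. The transcripts of Bcl2a1b and Bcl2a1d have 44.1% and 44.6% GC, and the bin of all tested genes that holds them had a median log2 fold change of 0.28. With the trend removed the log2 fold change was -0.07 for Bcl2a1b (limma adjusted p = 0.584) and -0.17 for Bcl2a1d (limma adjusted p = 0.0608), so neither call held. The exons of the 2 copies have 817 and 863 bases, and the parts of GC content and of length in the removed trend were not separated. The relative shares of the copies in their sum were 45.6 ± 1.87% for Bcl2a1b, 39.6 ± 1.89% for Bcl2a1d and 14.8 ± 1.24% for Bcl2a1a before culture (SD, n = 5), and 47.1 ± 0.853%, 37.1 ± 0.754% and 15.9 ± 0.267% after (SD, n = 4).

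**Figure D2:**
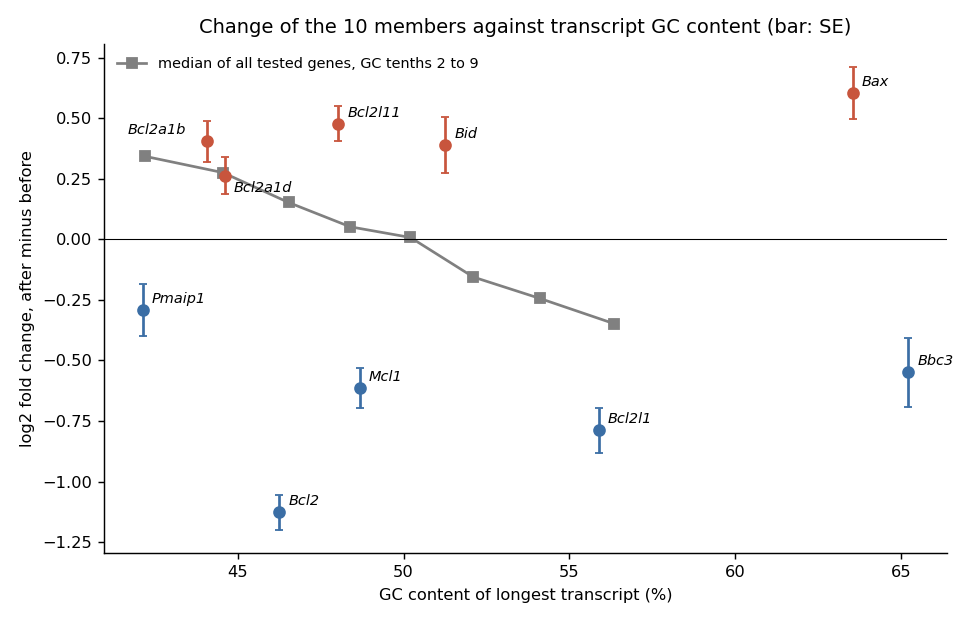
Log2 fold change, after minus before culture, of the 10 genes (points with SE bars, red higher and blue lower) against the GC content of their longest transcript in percent; grey squares are the medians of all tested genes in bins 2 to 9 of 10 equal bins by GC, joined by a line that falls from 0.34 to -0.35. Bcl2a1b and Bcl2a1d lie near the grey line, and Bcl2, Mcl1 and Pmaip1 far below it. Bax and Bbc3 lie at a higher GC content than the line reaches, with Bax above 0 and Bbc3 below 0.

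Bax, the effector that moves from the cytosol into the mitochondrial membrane, lies on chr7:45461697-45466898, minus strand. Its normalized counts were 1297, 1231, 1423, 975 and 1296 before culture and 1828, 2178, 1705 and 1822 after. Replicate 4 was the lowest before culture, and all cultured samples were above all uncultured ones. The mean rose 1.51-fold, from 1244 ± 166 to 1883 ± 205 (SD, n = 5 and 4), with a log2 fold change of 0.60 (SE 0.108, adjusted p = 0.000233 by limma). At 63.5% GC this rise ran against the trend of other genes, and with the trend removed it was 1.34 on the log2 scale. Without before-culture replicate 4 it was 0.52. Gm45808 covers 12.2% of its exon bases on the same strand.

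Bak1, the effector that sits in the membrane at rest, did not pass. It was measured at 3306, 3284, 3438, 2141 and 3342 before culture and 3039, 3413, 2438 and 3080 after. The groups overlapped widely, and before-culture replicate 4 was the lowest of all 9 samples. The log2 fold change was -0.04 (SE 0.137, adjusted p = 0.804 by limma), and 0.37 with the GC and length trend removed (limma adjusted p = 0.00635). Bok, a BAX relative, was low at 17.9 to 56.1 before and 15.9 to 27.4 after, with a log2 fold change of -0.73 (SE 0.324, adjusted p = 0.0595 by limma). edgeR on recovered reads gave an adjusted p of 0.0308 for Bok, and its log2 fold change with the trend removed was -0.12 (limma adjusted p = 0.768).

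Bcl2l11, which encodes BIM, the BH3-only protein best known for limiting the life of immune cells, lies on chr2:128126038-128162547, plus strand. Its normalized counts before culture were 6212, 5583, 6212, 5523 and 6714. After culture they were 8254, 8550, 8391 and 8387. The cultured samples were nearly equal and above every uncultured sample. The mean rose 1.39-fold, from 6049 ± 497 to 8395 ± 121 (SD, n = 5 and 4), with a log2 fold change of 0.48 (SE 0.0731, adjusted p = 6.12e-05 by limma). With the trend removed the value was also 0.48.

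Bid, which caspase-8 cuts to link death receptors to mitochondria, had the lowest mean count of the 10 in each group. It lies on chr6:120891930-120916853, minus strand. It was measured at 249, 332, 335, 319 and 328 before culture and at 368, 459, 376 and 432 after. All cultured samples were above all uncultured ones, with replicate 1 the lowest before culture. The log2 fold change was 0.39 (SE 0.116, adjusted p = 0.00898 by limma). Exons of Bcl2l13 on the opposite strand cover 17.7% of its exon bases, and Bcl2l13 itself had a log2 fold change of -0.02 (SE 0.0841).

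Bbc3, which encodes PUMA, a p53 target, is on chr7:16308393-16318205, plus strand. Its normalized counts were 709, 677, 650, 424 and 696 before culture and 410, 378, 449 and 467 after. Before-culture replicate 4 lay inside the range of the cultured samples, and the other uncultured samples lay above that range. The log2 fold change was -0.55 (SE 0.142, adjusted p = 0.00378 by limma), and -0.68 without replicate 4 (limma adjusted p = 1.86e-05). Bbc3 has the highest GC of the 10, 65.2%. With the GC and length trend removed its direction turned, to a log2 fold change of 0.28 (limma adjusted p = 0.0296). The same replicate was the lowest of its group for Bax and Bak1, whose transcripts have 63.5% and 57.1% GC.

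Pmaip1, which encodes NOXA, the BH3-only protein that targets MCL1, is on chromosome 18. It was measured at 3638, 3519, 3424, 3961 and 3852 before and at 2721, 2442, 3677 and 3309 after culture. After-culture replicate 3 fell within the range of the uncultured samples and the other cultured samples lay below that range. The log2 fold change was -0.29 (SE 0.108, adjusted p = 0.0271 by limma). The call was lost without before-culture replicate 5 (limma adjusted p = 0.0566), after-culture replicate 1 (0.0882) or after-culture replicate 2 (0.0920), and under upper quartile scaling (0.0770). At 42.1% GC it fell against the trend, and with the trend removed the log2 fold change was -0.73 (limma adjusted p = 1.1e-05).

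The rest of the family was read from the same fit. Counting the 10 genes, 25 family genes were listed and 22 tested, of which 10 were higher, 5 lower and 7 not called, a called share of 68.2% beside 68.8% of all tested genes. The groups did not overlap in 14 of the 22 (57.3% of all tested genes). Among the survival genes all 7 tested were called, 4 higher and 3 lower. After removal of the trend 1 was called higher and 3 lower, since none of the A1 copies was called. Bcl2l2, which encodes BCL-W, was measured at 391, 371, 379, 341 and 299 before culture and 744, 759, 671 and 657 after. It rose 1.99-fold with no overlap, a log2 fold change of 0.99 (SE 0.0996, adjusted p = 1.14e-06 by limma), and by 1.24 with the trend removed. Gm20521 covers 13.3% of the exon bases of Bcl2l2 on the same strand. Bcl2a1a had a log2 fold change of 0.46 (SE 0.096, adjusted p = 0.000807 by limma), which was -0.01 with the trend removed. Bcl2l10 had 0 to 2 reads per sample and was not tested.

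Of the BH3-only genes 7 were tested, with 3 higher, 2 lower and 2 not called (34.2% higher and 34.6% lower over all tested genes). After removal of the trend 5 were higher and 1 lower, Bbc3 and Bad being among the higher. Bmf, a BH3-only gene tied to loss of attachment and of cytokine signals, had the highest fold change of the group. It was measured at 1304, 1376, 1350, 1115 and 1206 before culture and 2336, 2258, 2724 and 2936 after. The cultured samples were all above the uncultured ones, 2.02-fold by their means (log2 fold change 1.01, SE 0.0946, adjusted p = 5.76e-07 by limma). Bad, which growth factor signals silence by phosphorylation, had a log2 fold change of -0.11 (SE 0.131, adjusted p = 0.488 by limma), 0.30 with the trend removed (limma adjusted p = 0.0165) and 0.06 under quantile normalization. Bik, at 22.2 ± 4.24 and 16.3 ± 4.64 normalized counts (SD, n = 5 and 4), had one of -0.45 (SE 0.283, adjusted p = 0.174 by limma), or 0.07 with the trend removed. Hrk had 0 to 3 reads per sample and was not tested.

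Relatives of less settled role included the strongest change in the family. Bcl2l14, which encodes BCL-G, was measured at 363, 290, 312, 321 and 297 before culture and 3441, 2798, 3390 and 3515 after. Its mean was 10.4-fold higher after culture, a log2 fold change of 3.37 (SE 0.0933, adjusted p = 6.46e-12 by limma). An opposite-strand gene, 4933406J09Rik, covers 14.1% of its exon bases. Bnip3l, a mitophagy receptor, rose 1.66-fold (log2 fold change 0.73, SE 0.0912, adjusted p = 9.55e-06 by limma), and had a log2 fold change of 0.31 with the trend removed. Its relative Bnip3 had a log2 fold change of 0.32 (SE 0.142, adjusted p = 0.0566 by limma), and Bcl2l12 one of -0.19 (SE 0.0983, adjusted p = 0.109 by limma). Both changed sign with the trend removed, to -0.14 and 0.19, and neither was called. Bcl2l15 had 3 to 19 reads per sample and was below the minimum for testing.

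**Figure D3:**
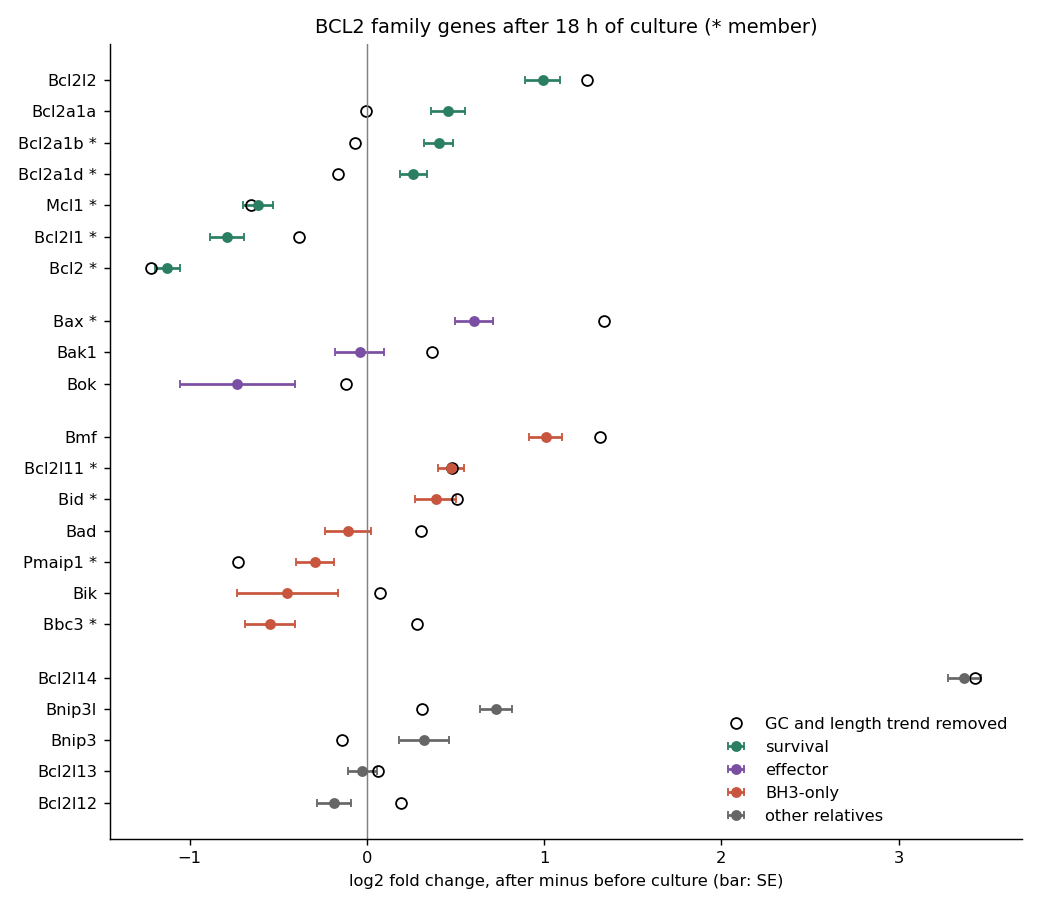
Log2 fold change, after minus before culture, of the 22 tested BCL2 family genes by role (filled points with SE bars, asterisks for the 10 genes), with open circles for the value after the GC and length trend was removed. Filled and open points are on opposite sides of 0 for Bcl2a1a, Bcl2a1b, Bcl2a1d, Bbc3, Bak1, Bad, Bik, Bcl2l12, Bcl2l13 and Bnip3, and Bcl2l14 is far to the right at 3.37.

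To compare levels between genes, normalized counts were divided by the length of each gene's merged exons. On this per-kilobase scale the tested survival genes summed to 14845 ± 984 before culture and 15336 ± 877 after (SD, n = 5 and 4), a difference smaller than the spread between samples. The makeup of that sum changed. The A1 copies held 60.1 ± 1.79% of it before and 74.6 ± 1.75% after. Reads with several matches leave the level of the A1 copies, and so their share and rank here, uncertain. Mcl1 held 31.7, 32.3, 36.6, 33.7 and 34.3% before and 20.6, 21.9, 19.8 and 22.9% after culture, with no overlap. Bcl2l1 went from 4.55 ± 0.318% to 2.58 ± 0.471% and Bcl2 from 1.09 ± 0.102% to 0.481 ± 0.0412%. The order of the per-kilobase levels before culture was Mcl1 (5010 ± 513), Bcl2a1b (4160 ± 399), Bcl2a1d (3411 ± 158), Bcl2a1a (1350 ± 152), Bcl2l1 (673 ± 36.9), Bcl2 (161 ± 8.45) and Bcl2l2 (79.8 ± 8.32). Of the neighbours in this order, the ranges of 1 SD around the mean overlapped for Mcl1 and Bcl2a1b and for no other pair. After culture Bcl2a1b (5494 ± 351) and Bcl2a1d (4103 ± 409) were above Mcl1 (3262 ± 92.9), and Bcl2l2 (159 ± 11.5) was above Bcl2 (73.5 ± 3.58). With the GC and length trend removed the shift in makeup was smaller, from 63.5 ± 2.72% to 71.0 ± 1.07% for the A1 copies and from 31.3 ± 2.19% to 23.8 ± 1.18% for Mcl1, while Bcl2l1 was at 3.72 ± 0.684% and 3.38 ± 0.352%. On those values the summed level was lower after culture, 13511 ± 354 against 16231 ± 1580, and Bcl2a1d (3471 ± 184) lay closer to Mcl1 (3217 ± 108). The A1 share was larger after culture there although no A1 copy was called higher.

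**Figure D4:**
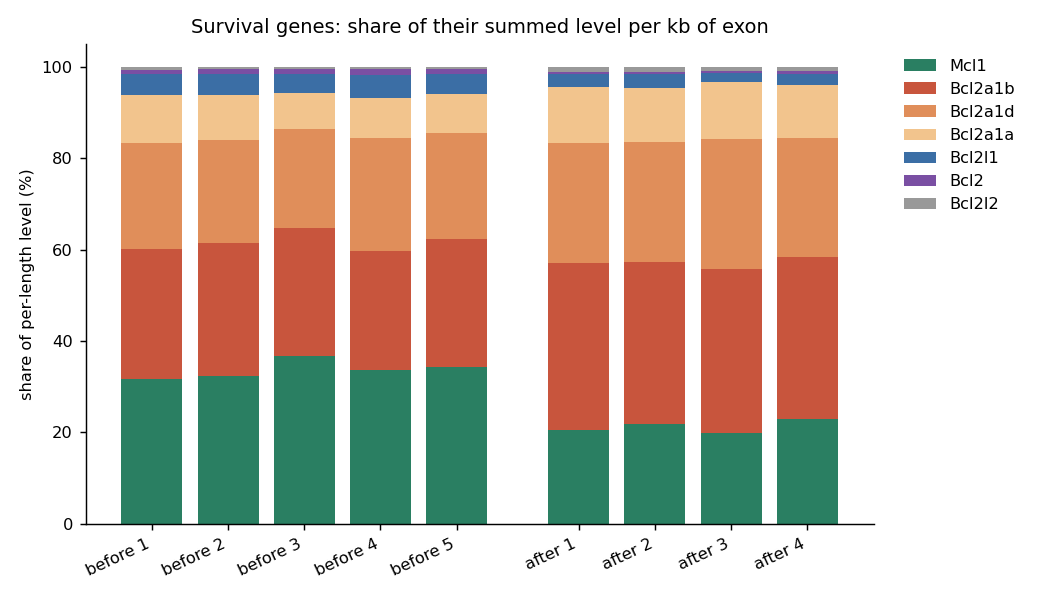
Share of each survival gene in their summed per-kilobase level (percent, stacked to 100) in each of the 9 samples. The green Mcl1 segment spans 31.7 to 36.6% in the 5 samples before culture and 19.8 to 22.9% in the 4 samples after.

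Among the BH3-only genes on the same scale, Pmaip1 held 47.2 ± 3.33% of the sum before culture and 35.9 ± 3.74% after (SD, n = 5 and 4). Bcl2l11 went from 26.3 ± 1.25% to 34.2 ± 3.02%, Bmf from 8.48 ± 0.805% to 15.8 ± 0.849% and Bbc3 from 10.4 ± 1.75% to 6.51 ± 0.22%. Dividing by the longest transcript in place of merged exons put Bcl2l11 at 34.2 ± 1.35% before and 42.6 ± 2.98% after, and Pmaip1 at 38.5 ± 3.09% and 28.2 ± 3.44%. After culture Bcl2l11 was above Pmaip1 in 2 of the 4 samples on merged exons, so their order there is not settled. With the trend removed the Bbc3 share turned, from 7.70 ± 0.454% to 8.99 ± 0.574%, Pmaip1 went from 52.4 ± 1.2% to 30.4 ± 2.06% and Bmf from 7.51 ± 0.61% to 17.9 ± 1.34%. For the effectors, Bax held 37.8 ± 1.69% before and 48.9 ± 1.9% after, and Bak1 61.2 ± 1.94% and 50.7 ± 1.87%.

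The BH3-only genes summed over the survival genes summed, per kilobase and within a sample, gave 0.193 ± 0.0089 before culture and 0.201 ± 0.0153 after (SD, n = 5 and 4), a difference within the spread between samples. The trend-removed values were 0.182 ± 0.0149 and 0.227 ± 0.0217, and the groups overlapped. The overlap came from before-culture replicate 4, at 0.205 against a lowest cultured value of 0.201. The other uncultured samples (0.169 to 0.187) lay below every cultured one. Ratios that set a single death gene that rose over a survival gene that fell differed more, which follows from that choice of genes. No such ratio was taken with the A1 copies. Bcl2l11 over Bcl2 was 5.07, 4.55, 4.87, 4.06 and 4.93 before culture and 13.8, 15.2, 14.6 and 13.4 after. The lowest cultured sample was far above the highest uncultured one, and both genes contributed, one by rising and the other by falling. Bcl2l11 over Mcl1 went from 0.151 ± 0.0113 to 0.321 ± 0.00929, and Bax over Bcl2 from 4.94 ± 0.783 to 16.3 ± 2.29 (SD, n = 5 and 4). For Mcl1 over Pmaip1, the survival protein and its BH3-only partner, the ratio was 3.10 to 4.48 before and 2.44 to 3.60 after, and the groups overlapped. With the trend removed Bcl2l11 over Bcl2 was 4.56 ± 0.328 and 14.8 ± 0.832, and Bax over Bcl2 was 3.78 ± 0.259 and 22.3 ± 2.95. Mcl1 over Pmaip1 turned direction, at 3.30 ± 0.361 before and 3.48 ± 0.413 after, and its groups still overlapped.

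Genes that act beside or below the family were read from 4 further lists with 38 genes, all tested, of which 19 were higher and 12 lower (81.6% called, beside 68.8% of all tested genes, 34.2% higher and 34.6% lower). In the mitochondrial pathway below BAX and BAK, 6 of 11 genes were higher and 2 lower, a called share of 72.7% that is near that background. Apaf1, the scaffold of the apoptosome, was measured at 3358, 3122, 3506, 3482 and 3537 before culture and 7363, 7151, 6766 and 7247 after. Every cultured sample was well above every uncultured one, and the means differed 2.1-fold (log2 fold change 1.07, SE 0.0655, adjusted p = 8.24e-09 by limma). Against the list's direction, Casp6 fell 1.63-fold (limma adjusted p = 0.000323) and Endog, a mitochondrial nuclease, 2.21-fold (limma adjusted p = 0.00142, and 0.112 with the trend removed). Cycs, which encodes cytochrome c, had a log2 fold change of 0.20 (SE 0.136, adjusted p = 0.213 by limma), or -0.30 with the trend removed.

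Of the 5 inhibitor of apoptosis genes 4 were higher and 1 lower (34.2% higher and 34.6% lower over all tested genes). With the trend removed 3 were higher and 2 lower. Birc2, which encodes cIAP1, was measured at 1302, 1293, 1392, 1687 and 1471 before culture and 6279, 4726, 7745 and 6384 after. It rose 4.4-fold with no overlap (log2 fold change 2.12, SE 0.124, adjusted p = 5.42e-09 by limma), and Birc3, which encodes cIAP2, rose 2.29-fold. Birc5, which encodes survivin and is mainly made by dividing cells, fell 11.6-fold, from 348 ± 49.5 to 30.0 ± 10.6 normalized counts (SD, n = 5 and 4; log2 fold change -3.55, SE 0.217, limma adjusted p = 8.24e-09). Xiap, the direct caspase inhibitor of the list, was at the threshold with a log2 fold change of 0.19 (SE 0.0789), a limma adjusted p of 0.0459 and an edgeR adjusted p of 0.0539. With the trend removed it was called lower, at -0.43 (limma adjusted p = 0.000291).

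In the death receptor list 5 of 10 genes were higher and 4 lower, a called share of 90% beside 68.8% of all tested genes. With the trend removed 5 were higher and 5 lower. Cflar, which encodes the caspase-8 inhibitor FLIP, rose 2.1-fold (log2 fold change 1.07, SE 0.0853, adjusted p = 1.13e-07 by limma). The lower genes were the ligands Tnfsf10 (TRAIL, log2 fold change -1.93, SE 0.199) and Fasl (-2.01, SE 0.215) and the receptors Tnfrsf1a (-1.28, SE 0.136) and Tnfrsf10b (-0.50, SE 0.122), each with a limma adjusted p between 1.45e-06 and 0.0024. NK cell markers, whose sum was lower in every cultured sample, moved with the 2 ligands, and their part was not tested. Casp8, which cuts BID, had a log2 fold change of 0.35 (SE 0.0715, adjusted p = 0.000727 by limma), and 0.17 with the trend removed.

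Transcription factors known to act on the family went both ways, with 4 of 12 higher and 5 lower, a called share of 75% beside 68.8% of all tested genes. The balance turned with the trend removed, with 6 higher and 3 lower of the 11 that have a GC value. Relb, a subunit of the noncanonical NF-kB pathway, rose 3.32-fold (log2 fold change 1.73, SE 0.0785, adjusted p = 4.53e-10 by limma). Nfkb1, another NF-kB subunit, fell 1.6-fold (log2 fold change -0.68, adjusted p = 2.14e-06 by limma, and -0.82 with the trend removed). Rela, also an NF-kB subunit, was not called, at -0.17 (limma adjusted p = 0.0582). With the trend removed Rela was called higher, at 0.37 (limma adjusted p = 4.54e-05). Stat3 rose 1.8-fold (log2 fold change 0.85). Stat5a (0.44, and 0.98 with the trend removed) and Stat5b (0.37, and 0.62), which relay growth factor signals, were also higher. Atf4, the effector of the integrated stress response, fell 2.25-fold (log2 fold change -1.17, SE 0.0688, adjusted p = 5.48e-09 by limma). Trp53, which acts on Bax, Bbc3 and Pmaip1, had a log2 fold change of -0.17 (SE 0.0743, adjusted p = 0.0553 by limma; edgeR adjusted p 0.0401). Foxo3, known to act on Bcl2l11, fell 1.27-fold (limma adjusted p = 0.000871), and this was -0.04 on the log2 scale with the trend removed (limma adjusted p = 0.538).

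**Figure D5:**
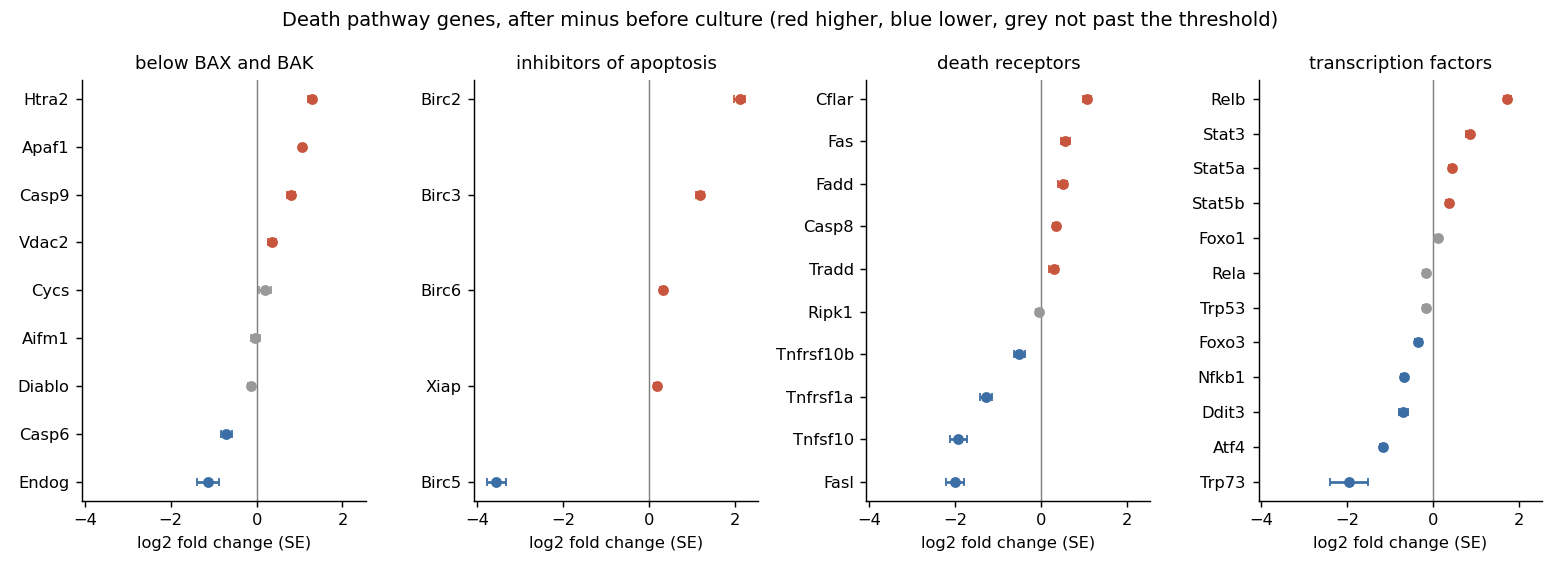
Log2 fold change with SE, after minus before culture, of 36 of the 38 genes of the 4 lists below or beside the BCL2 family; red is higher, blue lower and grey not past the adjusted p of 0.05. Birc2 (2.12), Cflar (1.07) and Relb (1.73) are the rightmost points of their panels, and Birc5 is the leftmost of all at -3.55.

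Promoter windows from RefSeq on GRCm38.p6, 250 bases before to 50 after a start site, were found for 9 of the 10 genes. They were searched on both strands for letters bound by factors of the last list or of the AP-1 and CRE families. The FOXO letters GTAAACA occur in 3.65% of the 32851 windows in the table and in at least 1 window of 4.05% of its genes. Of the 9 genes 2 hold them, each in 1 of its windows. Bcl2l11 has 2 windows, with the match at position -227 from the start site of the matching window. Bbc3 has 3 windows, with the match at -167 from that of its own. A gene with more windows has more chances of a match. The matching windows are shown because the 2 BH3-only genes share the letters, in capitals. Their counts moved in opposite directions, and their log2 fold changes with the GC and length trend removed were 0.48 and 0.28. A part of these letters in either change was not tested. The window of Bcl2l11 is chr2:128125788-128126087 and that of Bbc3 is chr7:16310011-16310310, both on the plus strand, and the match in Bbc3 is on the reverse strand. The Bbc3 window lies inside the gene, which begins at 16308393.
Bcl2l11: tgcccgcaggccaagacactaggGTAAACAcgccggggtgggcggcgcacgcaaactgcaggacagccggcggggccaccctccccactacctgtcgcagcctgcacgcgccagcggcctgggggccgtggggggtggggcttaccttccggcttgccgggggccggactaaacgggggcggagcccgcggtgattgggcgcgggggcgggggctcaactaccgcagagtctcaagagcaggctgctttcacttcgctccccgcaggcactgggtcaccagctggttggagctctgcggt
Bbc3: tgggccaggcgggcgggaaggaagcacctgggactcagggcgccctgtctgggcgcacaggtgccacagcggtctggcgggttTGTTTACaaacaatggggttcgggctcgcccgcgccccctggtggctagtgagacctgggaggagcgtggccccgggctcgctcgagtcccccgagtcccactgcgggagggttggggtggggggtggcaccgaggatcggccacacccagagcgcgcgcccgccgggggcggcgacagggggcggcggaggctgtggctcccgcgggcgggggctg

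The AP-1 letters TGANTCA occur in 7.81% of all windows and for 8.97% of genes, and the 2 A1 copies among the 10 genes hold them, as does Bcl2a1a. The windows are chr9:89199023-89199322 on the plus strand for Bcl2a1b, with the match at -164, and chr9:88731801-88732100 on the minus strand for Bcl2a1d, with the match at -114. Each is printed 5′ to 3′ on the gene's strand with the match in capitals, to show how far the shared sequence of these copies, whose counts moved together, reaches before the gene.
Bcl2a1b: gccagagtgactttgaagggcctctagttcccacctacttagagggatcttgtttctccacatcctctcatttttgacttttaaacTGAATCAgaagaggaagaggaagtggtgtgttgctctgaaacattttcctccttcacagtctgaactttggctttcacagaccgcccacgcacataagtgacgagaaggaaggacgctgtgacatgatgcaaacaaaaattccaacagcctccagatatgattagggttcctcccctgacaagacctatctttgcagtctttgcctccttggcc
Bcl2a1d: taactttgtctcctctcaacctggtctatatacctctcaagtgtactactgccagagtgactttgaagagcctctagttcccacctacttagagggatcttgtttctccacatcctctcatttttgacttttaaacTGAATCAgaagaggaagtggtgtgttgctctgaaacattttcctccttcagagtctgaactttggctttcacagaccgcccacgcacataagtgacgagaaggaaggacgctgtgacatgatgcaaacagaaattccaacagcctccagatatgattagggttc

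The NF-kB motif, found in 8.46% of windows and for 9.55% of genes, was present for Bbc3, with 2 overlapping matches, and for Bcl2l1. Each of these genes has 3 windows. A p53 half-site, found in 8.36% of windows, was present for Bax. Neither the STAT letters TTCNNNGAA (8.30% of windows) nor the CRE letters TGACGTCA (1.79%) occurred for any of the 9 genes. No match to a motif overlapped a match to another in their windows. A match is a description of letters, not a binding site.

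Finally, each of the 10 genes was compared with 11786 genes whose normalized counts averaged 100 or more by Pearson's r of log2(count + 1) over the 9 samples. These values share the libraries and the difference between the 2 groups, so they describe likeness only. The genes most like Bcl2 were Tiparp and D16Ertd472e (both r = 0.996), those most like Bcl2l1 were Tnf and Rps6ka2 (both 0.992), and those most like Mcl1 were Tctn3 and Slc4a11 (both 0.988). Il21r and Terf2ip were nearest to Bcl2a1b (both 0.986), and Zfp959 (0.974) and Emc9 (0.959) to Bcl2a1d. Nearest to Bcl2l11 were AU022252 (0.993) and Pld2 (0.991), to Bax Cemip and Jagn1 (both 0.992) and to Bid Crk (0.967) and Zbed4 (0.963). Bbc3 was most like Ndufaf8 (0.983) and Trappc6a (0.974), and Pmaip1 most like Ipcef1 (0.957) and Gm26542 (0.953). The number of genes at r of at least 0.95 was 1582 for Bcl2, 764 for Bcl2l1 and 522 for Mcl1, and between 2 and 346 for the other 7. Bcl2, with the strongest fold change of the 10, thus had many genes of like pattern, and Pmaip1, whose groups overlapped, had the fewest.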

How the data were processed

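The values used are a signal deposited by the authors: read counts per gene after normalization, in 1 table of 49317 rows and 9 samples. Per the submitters' processing notes, DESeq2 and the build GRCm38 were used. The aligner, counter, annotation and strandedness are not given in the sources used here. Every deposited value (100%) was a whole multiple of what 1 read is worth in its column (relative tolerance 1e-06), so whole reads were recovered. The 3782 rows with no symbol were left out of tests and depths, and held 9.11 ± 1.64% of reads before and 4.57 ± 0.663% after culture (SD, n = 5 and 4).

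Named genes with a mean of at least 10 were fitted in R 4.3.3 by limma 3.58.1 on log2(value + 1) (no term but the group, mean-variance trend, two-sided), adjusted by Benjamini-Hochberg over all 18202, with a threshold of 0.05. Fold changes on this scale understate those of low genes. Means, ratios of means and per-kilobase levels are on the linear scale. The alternatives were pseudocounts of 0.5 and 8, no filter or a minimum of 50, TMM, quantile and upper quartile scaling, edgeR 4.0.16 and DESeq2 1.42.0 on recovered reads, sample weights, replicate blocks, a GC and length trend removed per sample (mgcv 1.9.3; values for 96.3% of tested genes), and leaving out each sample. edgeR called 12562 genes and DESeq2 12663, against 12524 by limma; DESeq2 gave no adjusted p for 3 genes. The scripts were tested on simulated counts. Gene models came from GENCODE M21 and promoters from RefSeq (GRCm38.p6); protein sequences were not used here. Tables and figures were made with Python 3.11.15, pandas 2.3.3, NumPy 2.4.6 and matplotlib 3.10.9.

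The 10 genes and all lists were chosen with earlier results of these data known. The genes named are the 10, the other measured family genes, up to 3 genes of each further list with the smallest adjusted p, those called against their list's median, the markers that describe the samples, and the 2 genes most like each of the 10. Cycs, Xiap, Casp8, Trp53, Foxo3, Nfkb1 and Rela fall outside that rule and were named after their values were seen. For 2 genes of the further lists, values are not reported here; the counts include them.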

Additional observations from a re-analysis of the deposited data

Results flagged for a closer look

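In a group of 5 samples, a value was marked where its gap to the nearest other sample was an unusually large part of the group's range (Dixon's test). Of 44 sets of values checked, the 22 tested family genes in each group, 4 were marked, and chance marks about 1 in 20. Before-culture replicate 4 was the lowest of its group for Bbc3, at 424 normalized counts against 650 in the next sample, and for Bak1, at 2141 against 3284. Before-culture replicate 5 was the highest for Bcl2a1d, at 3181 against 2917. Before-culture replicate 1 was the lowest for Bid, at 249 against 319. Without these samples Bbc3, Bcl2a1d and Bid kept their direction and their calls, and Bak1 remained without a call.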

How the results depend on the processing

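Over 14 alternatives that kept all samples, the number of the 10 genes called was 7 to 10, of the whole family 13 to 17, of the 38 death pathway genes 29 to 33, and of all tested genes 9925 to 14150. The ends of this last range come from different filters. They were 9925 of 13551 tested genes at a minimum mean of 50 and 14150 of 31592 with no filter. Leaving out each of the 9 samples in turn gave 9 to 10, 14 to 16, 29 to 32 and 11766 to 12691. Taking each of the 10 genes under each setting, 219 values kept direction and call, 5 lost the call, all for Pmaip1, and 6 turned direction, all with the GC and length trend removed.

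Removing that trend, alone and then with the replicate block by title number, gave log2 fold changes of -0.0696 and -0.0386 for Bcl2a1b, -0.17 and -0.14 for Bcl2a1d, and 0.28 and 0.30 for Bbc3. For Bak1 they were 0.37 and 0.39, for Bad 0.30 and 0.33, and for Bcl2a1a -0.0065 with the trend alone. The cause was not tested. The replicate block by title number called 9 of the 10 genes, losing Pmaip1 (limma adjusted p = 0.0542), and 11646 genes in all. The block by library number called 10 and 12836. By title number, same-numbered samples did not deviate together throughout (r of -0.213 to 0.081). By library number r was 0.045 to 0.349, and every cultured sample had its highest r with the same-numbered uncultured one. A pairing by library number is thus possible, and the main fit did not use it.

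Dividing by the longest transcript put the A1 share before culture at 57.8%. Removing the trend, an alternative chosen for the shares after seeing the data, put A1 at 63.5% before and 71.0% after culture and Mcl1 at 31.3% and 23.8%. Leaving out 1 sample gave 59.6 to 60.7% before and 73.8 to 75.1% after for A1, and 33.0 to 34.2% and 20.8 to 21.8% for Mcl1. Read depth is ample for the 10 genes. The limits are near-identical copies, overlapping genes, the GC trend and the shift of other cell types' markers, all of which move with or touch the comparison of 5 with 4 samples. Bnip3 and Bok passed under some alternatives and not others. Bcl2l10, Hrk and Bcl2l15 have too few reads for any statement.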
